A study of Oryctolagus cuniculus with 30 samples.

Results

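Rabbit vocal folds that had been stripped of their mucosa and then injected with type I collagen were compared with uninjured folds. The comparison takes the 6 libraries titled Col1 and the 6 titled as uninjured control, 12 of the 30 libraries in the series, from 6 of its 15 animals. Vocal fold tissue of New Zealand white rabbits was profiled by RNA sequencing in 5 groups of 3 animals, and the left and right fold of each animal formed separate libraries. In the Col1 group the superficial mucosa of both folds was stripped under sedation, and 20 µL of type I collagen was injected into each fold 7 days later. Their tissue was collected 28 days after treatment. Control animals had neither injury nor injection, and no collection time is listed for them. A further group, injury_only, had the same stripping and no injection, and its values are set beside the others where they help to place a level. The day from which its 28 days run was not established here. The other groups, VFLP (man) and VFLP (au), received other injections after the same injury and entered the fit only to estimate the spread between animals. The labels give no ages. Col1 therefore differs from control by stripping, injection and collagen together, and these cannot be told apart in this comparison.

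The vocal fold is a layered tissue. A stratified squamous epithelium covers the lamina propria, a soft matrix of collagen, elastic fibres, hyaluronan and proteoglycans made by fibroblasts, and below it lies the skeletal thyroarytenoid muscle. Scarring after injury usually replaces this soft matrix with dense, disordered collagen, and type I collagen has long been used as an injectable filler. Cells meet collagen through integrins and discoidin domain receptors, build it with prolyl and lysyl hydroxylases, cross-link it with lysyl oxidases and degrade it with metalloproteinases and cathepsin K.

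Libraries held 18.1 to 31.9 M reads on genes in Col1 and 14.2 to 27.5 M in control (M, mega-reads). Mapped reads with no annotated gene on the strand counted made up 9.68 to 15.0% of Col1 libraries and 5.07 to 6.69% of control libraries. The groups did not overlap, and reads on the opposite strand of a gene can be among these. Ambiguous reads made up 0.129 to 0.173% and 0.602 to 1.8% in the same order. In injury_only they made up 0.852 and 0.802% in the folds of animal 2 and 0.13 to 0.167% in animals 1 and 3. Of these injury_only libraries only the right fold of animal 1 is in batch D. VFLP (man) animal 3, in batch D, had 0.51 and 0.643%. What set these shares was not tested. All Col1 libraries carry the batch label D and all control libraries the label C, so batch and treatment cannot be told apart. Log2 levels of the left and right fold of an animal correlated across genes at 0.968 to 0.971 in Col1 and at 0.948 to 0.949 in control. The labelled tissue could be checked in part: KRT15, a keratin of basal squamous epithelium, was read at 881 to 1440 CPM in Col1 animals and at 472 to 867 CPM in control animals. The fast muscle myosin MYH1 was also present in every animal, although the protocol names dissected mucosa and the muscle lies below it. CPM are gene reads scaled to a common library size (counts per mega-read, with TMM factors), with both folds of an animal summed unless a fold is named. They compare samples for 1 gene, not genes with each other.

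Of 17770 genes tested, 5702 (32.1%) passed an adjusted p of 0.05 by edgeR's quasi-likelihood test, 2396 (13.5%) of them higher and 3306 (18.6%) lower in Col1. At least 2-fold changes were more often decreases: 2207 genes fell and 968 rose by that much. The median log2 fold change over all genes tested was 0.12. These counts rest on the main model without a batch term. With batch as a covariate, which rests on 1 injury_only animal that has a fold in each batch, 0 genes passed in edgeR (2314 at an unadjusted p under 0.05). A fit that took muscle content into account as a covariate also left 0 (2652 at an unadjusted p under 0.05). That covariate was the mean log2 CPM of the skeletal muscle fibre genes described below. It was 9.39 to 10.51 in control animals, 5.51 to 6.8 in Col1 animals and at most 8.47 in the other groups. The fit therefore cannot separate muscle content from the difference between Col1 and control. SE stands below for the standard error of a log2 fold change, which is approximate, adjusted p values are from the same edgeR fit, and "rose" or "fell" is used only for genes past the threshold.

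Skeletal muscle genes gave the lowest list median of the main fit. Of 26 muscle fibre genes tested, 24 fell in Col1 (92.3%) and none rose, with a median log2 fold change of -3.63. In that fit 18.6% of all genes tested fell and 13.5% rose, the background for its list counts below. The muscle median was -2.24 in left folds alone and -5.13 in right folds alone. With batch as a covariate it was -0.34, and other lists then lay lower, among them the collagen chains at -1.37. MYH1 was read at 1270, 1220 and 416 CPM in the 3 Col1 animals and at 14600, 29800 and 16000 CPM in the 3 control animals. The groups lay far apart, and MYH1 fell 20.9-fold (SE 0.72, adjusted p = 0.001). CACNA1S, the voltage sensor of skeletal muscle, stood at 40.7, 48.5 and 18.5 CPM in Col1 and at 389, 618 and 574 CPM in control. It fell 14.7-fold (SE 0.62, adjusted p = 0.00089). In such samples fewer cells of a type, less RNA per cell and less muscle taken at dissection cannot be told apart.

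The same muscle genes took 0.632 ± 0.285% of gene reads in Col1, 5.93 ± 1.41% in control and 1.71 ± 0.635% in injury_only (SD, n = 3 animals each). By library, Col1 ranged from 0.0629 to 1.55% and control from 1.57 to 9.02%. In each Col1 animal the left fold held more muscle reads than the right, and in each control animal the right fold held more than the left. Entries that carry the locus tag KEF51, for which the sources used here give no gene name, were likewise lower in Col1 and took 1.88 to 5.02% of gene reads in Col1 libraries and 5.43 to 29% in control libraries. Muscle content therefore moved with the groups in every comparison given below. Its part in any result was not tested, since the muscle covariate could not be separated from the groups.

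**Figure D1:**
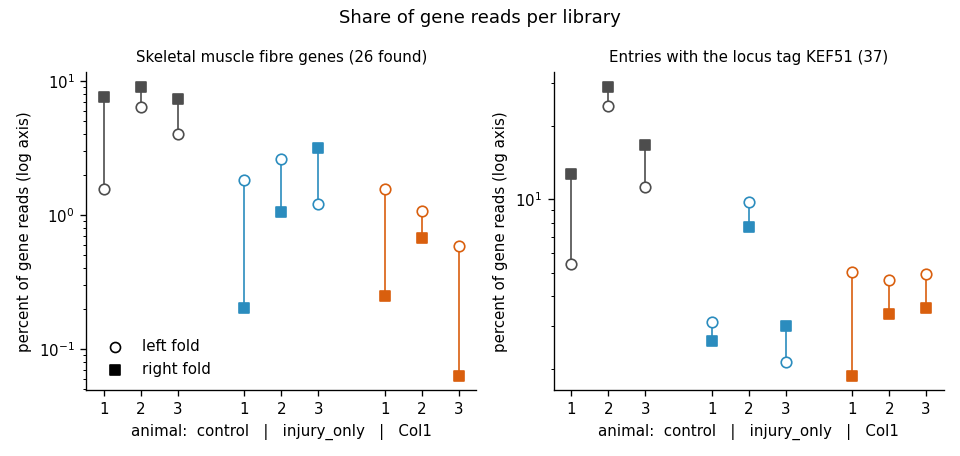
Percent of gene reads (log axis) on the 26 skeletal muscle fibre genes found in the table (left panel) and on the 37 entries tagged KEF51 (right panel), for each animal of control, injury_only and Col1; open circles are left folds, filled squares right folds, and a line joins the folds of an animal. Muscle shares were 1.57 to 9.02% in control libraries and 0.0629 to 1.55% in Col1 libraries, and the right fold was the higher in all control animals and the lower in all Col1 animals.

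Genes of energy metabolism were lower in Col1 across almost the whole list. Of 30 nuclear genes of oxidative phosphorylation, which make ATP in mitochondria, 29 fell and none rose, with a median log2 fold change of -1.74. NDUFS1, a core subunit of respiratory complex I, stood at 138, 127 and 113 CPM in Col1 against 401, 869 and 590 CPM in control, a 4.92-fold fall (SE 0.24, adjusted p = 0.00029). NDUFS3, another complex I subunit, fell 4.15-fold (SE 0.22). All 21 tested genes of fatty acid oxidation fell as well, with a median of -1.56. ACADM, the medium-chain acyl-CoA dehydrogenase, was at 43.4, 39.7 and 35.9 CPM in Col1 and at 129, 299 and 202 CPM in control (5.3-fold lower, SE 0.26, adjusted p = 0.00029). ETFDH, which passes electrons from fatty acid oxidation to the respiratory chain, fell 3.31-fold (SE 0.19). Levels in injury_only lay nearer to Col1 than to control for both genes: NDUFS1 stood there at 134, 175 and 179 CPM and ACADM at 37, 56.6 and 59.2 CPM.

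Collagen genes of the rabbit's own tissue were lower in the folds that had received collagen. Of 13 interstitial collagen chains tested, 11 fell and none rose, with a median log2 fold change of -1.69. COL1A1, a chain of type I collagen itself, stood at 59.6, 30.5 and 69.5 CPM in Col1 and at 179, 179 and 122 CPM in control. The groups did not overlap, and COL1A1 fell 3.0-fold (SE 0.51, adjusted p = 0.033). This call did not hold when Col1 animal 1 or 2 or control animal 1 or 2 was left out, nor without the right fold of control animal 2 (adjusted p = 0.069, 0.1, 0.062, 0.084 and 0.052 in that order). COL1A2, the other chain of the same protein, was at 97.6, 44 and 113 CPM against 327, 369 and 261 CPM and fell 3.76-fold (SE 0.43, adjusted p = 0.0056). Its call held without any 1 animal.

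COL3A1, the chain of type III collagen found in soft and healing tissue, was at 135, 88.7 and 200 CPM in Col1 and at 650, 399 and 312 CPM in control, and fell 3.22-fold (SE 0.43, adjusted p = 0.011). Among the chains past the threshold the largest falls were those of the type VI chain COL6A3 and of COL15A1, a collagen at the border of basement membranes. COL6A3 stood at 3.82, 3.29 and 3.32 CPM against 20.4, 42.3 and 32.2 CPM (9.09-fold lower, SE 0.48). COL15A1 stood at 8.21, 9.4 and 9.35 CPM against 42.1, 120 and 63.6 CPM (8.36-fold lower, SE 0.4). All animals of Col1 lay below all control animals for both. COL6A1 and COL6A2, the partners of COL6A3, fell 3.96-fold and 4.12-fold, COL14A1 3.02-fold, COL16A1 2.53-fold, COL5A3 8.18-fold and COL12A1 1.66-fold. COL5A2 (log2 -0.61, adjusted p = 0.12) and COL11A1 (log2 0.26, adjusted p = 0.85) did not pass, and their groups overlapped.

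The median of the collagen chains was -0.93 in left folds alone and -2.55 in right folds alone. With batch as a covariate it was -1.37 and with muscle level as a covariate -2.86, although no single gene passed in either fit. In injury_only COL1A1 was read at 109, 164 and 107 CPM, COL3A1 at 303, 361 and 202 CPM and COL6A3 at 10.8, 16.2 and 13.9 CPM. For COL1A1 and COL6A3 these levels lay above every Col1 animal and below at least 1 control animal. Col1 against injury_only was 2.38-fold lower for COL1A1 (SE 0.51, adjusted p = 0.32) and 3.92-fold lower for COL6A3 (SE 0.45, adjusted p = 0.27), neither past the threshold.

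**Figure D2:**
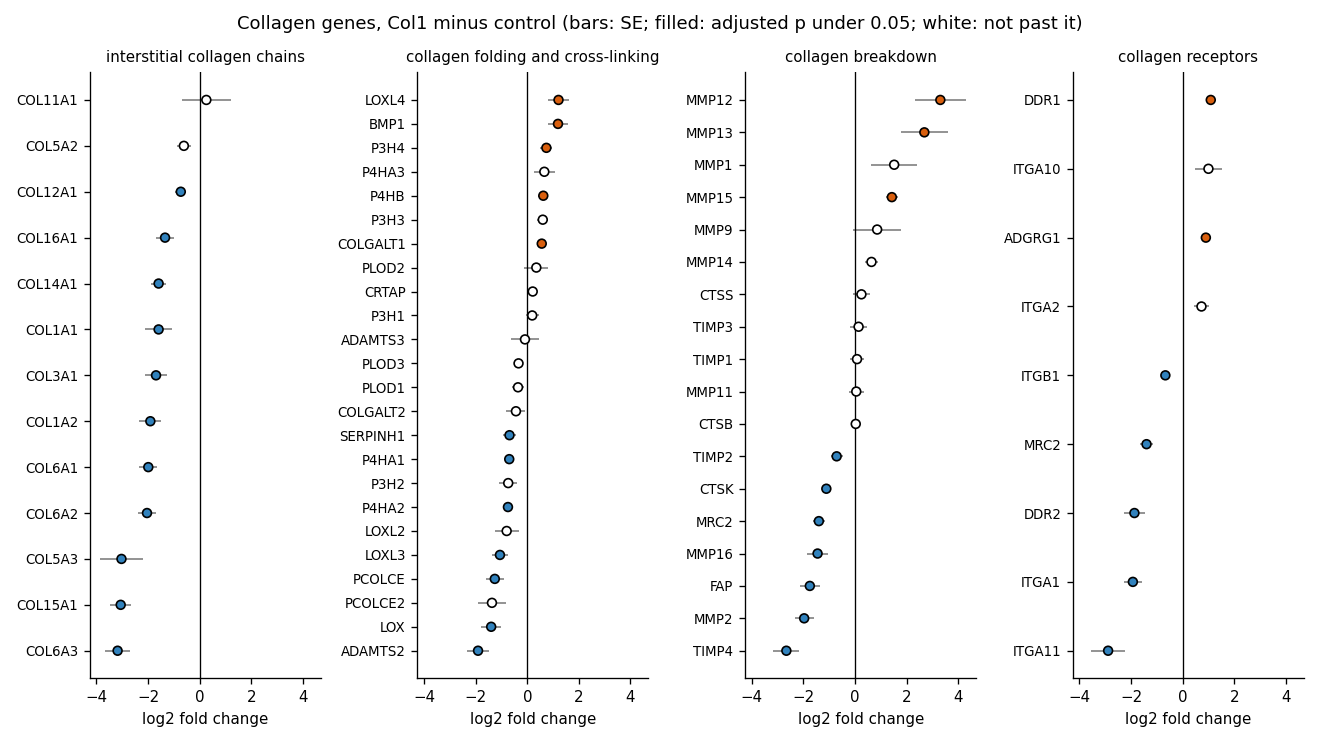
Log2 fold change, Col1 minus control, with its SE for the tested genes of 4 collagen lists (chains, folding and cross-linking, breakdown, receptors); filled points have an adjusted p under 0.05, orange for higher and blue for lower, and white points do not. The chains lie to the left of 0 except COL11A1, while the other lists spread to both sides.

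Of 24 genes that fold, modify and cross-link collagen, 5 rose (20.8% against 13.5% of all genes) and 7 fell (29.2% against 18.6%), with a median of -0.35. ADAMTS2, which removes the amino-terminal propeptide of procollagen, was at 1.87, 1.08 and 3.7 CPM in Col1 and at 8.04, 10 and 7.02 CPM in control, a 3.76-fold fall (SE 0.43, adjusted p = 0.0055). LOX, the lysyl oxidase that cross-links collagen and elastin, was at 4.8, 2.91 and 8.54 CPM against 19, 12.7 and 11.3 CPM (2.64-fold lower, SE 0.39, adjusted p = 0.017). The prolyl hydroxylase subunits P4HA1 and P4HA2 fell 1.63-fold and 1.68-fold, and the collagen chaperone SERPINH1 fell 1.61-fold. LOXL3 and the proteinase enhancer PCOLCE fell 2.09-fold and 2.4-fold.

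The 5 genes of this list that rose were LOXL4, BMP1, P3H4, P4HB and COLGALT1. BMP1, which removes the carboxy-terminal propeptide, was at 45.3, 41.3 and 107 CPM in Col1 and at 38.9, 22.8 and 23.1 CPM in control (2.28-fold higher, SE 0.37, adjusted p = 0.029). Col1 animal 3 lay far above the rest, and the lowest Col1 animal was only slightly above the highest control animal. LOXL4, another lysyl oxidase, was at 14.5, 8.3 and 7.12 CPM against 5.27, 2.88 and 4.74 CPM (2.31-fold higher, SE 0.41, adjusted p = 0.039). P4HB, the protein disulfide isomerase subunit of prolyl hydroxylase, rose 1.54-fold, P3H4 1.67-fold and the collagen galactosyltransferase COLGALT1 1.48-fold.

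Of 18 genes of collagen breakdown, 3 rose (16.7%, near the 13.5% of all genes) and 7 fell (38.9% against 18.6%), with a median of 0.06 that was below 0 in some alternatives (-0.59 with muscle level as a covariate, -0.13 in right folds alone, -0.04 and -0.07 without Col1 animal 1 or 3). CTSK, the collagen-cleaving protease cathepsin K, was at 24.6, 26.1 and 32.7 CPM in Col1 and at 54.4, 70.8 and 55.4 CPM in control, a 2.16-fold fall (SE 0.18, adjusted p = 0.001). MMP2, the gelatinase of fibroblasts, was at 28.3, 20.9 and 46.9 CPM against 126, 144 and 105 CPM (3.91-fold lower, SE 0.37, adjusted p = 0.0021). The fibroblast protease FAP fell 3.35-fold, MMP16 2.74-fold and the metalloproteinase inhibitors TIMP2 and TIMP4 1.64-fold and 6.3-fold.

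The 3 that rose were MMP15, MMP12 and MMP13. MMP15, a membrane-bound metalloproteinase, stood at 153, 122 and 242 CPM in Col1 and at 63.2, 74.1 and 54.4 CPM in control, with all Col1 animals above all controls (2.7-fold higher, SE 0.23, adjusted p = 0.00092). MMP12, the macrophage elastase, was near the limit of detection at 0.492, 0.481 and 0.121 CPM against 0.0827, 0 and 0 CPM, and rested on 52 reads in all Col1 libraries and 4 in all control libraries. MMP13, a collagenase, was at 1.82, 0.577 and 0.992 CPM against 0.413, 0 and 0.0571 CPM (169 and 22 reads). The interstitial collagenase MMP1 was at 3.35, 1.71 and 2.19 CPM in Col1 and at 1.96, 0.0457 and 0.428 CPM in control, and did not pass (log2 1.52, SE 0.89, adjusted p = 0.21). Without control animal 1, which had the highest control value, MMP1 passed (log2 3.25, adjusted p = 0.019).

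The discoidin domain receptors DDR1 and DDR2 took opposite directions. DDR1, a receptor tyrosine kinase for collagen that epithelial cells carry, was at 310, 302 and 375 CPM in Col1 and at 186, 102 and 175 CPM in control, and rose 2.13-fold (SE 0.19, adjusted p = 0.0014). DDR2, its relative in fibroblasts and other mesenchymal cells, was at 17.4, 14.3 and 38.9 CPM against 64.2, 116 and 77.3 CPM and fell 3.65-fold (SE 0.42, adjusted p = 0.0053). Neither gene's groups overlapped. ITGA11, the collagen-binding integrin subunit of fibroblasts, was at 1.15, 0.818 and 0.931 CPM against 5.04, 10.7 and 5.91 CPM (7.42-fold lower, SE 0.66, adjusted p = 0.0062). ITGA1 fell 3.81-fold (SE 0.34), the shared partner subunit ITGB1 1.59-fold (SE 0.15) and the collagen uptake receptor MRC2, which the breakdown list holds too, 2.64-fold (SE 0.24). ADGRG1, an adhesion receptor that binds type III collagen, rose 1.86-fold (SE 0.19).

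ITGA2, the collagen-binding integrin subunit of epithelium and platelets, stood at 29.5, 35.5 and 23.8 CPM in Col1 and at 26.8, 10.2 and 16.2 CPM in control. Its groups overlapped through control animal 1, and it did not pass (log2 0.73, SE 0.3, adjusted p = 0.081), whereas it passed without that animal (log2 1.16, adjusted p = 0.0074). In all, 2 of the 9 receptors tested rose (22.2% against 13.5% of all genes) and 5 fell (55.6% against 18.6%). Their median was -0.67. LAIR1, an inhibitory collagen receptor of immune cells, was not analysed here.

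Elastic fibre and proteoglycan genes were lower or not past the threshold. Of 17 elastic fibre genes 11 fell (64.7% against 18.6% of all genes) and none rose (median -1.24). Of 13 proteoglycans 7 fell (53.8%) and none rose (median -1.13). ELN, elastin, was at 33.2, 20.2 and 59.2 CPM in Col1 and at 105, 89.6 and 112 CPM in control, a 2.72-fold fall (SE 0.38, adjusted p = 0.012). MFAP5, a microfibril protein, stood at 35.3, 28.4 and 71.2 CPM against 207, 352 and 343 CPM (6.68-fold lower, SE 0.39, adjusted p = 0.00055). FBLN2, which links elastic fibres to other matrix, fell 4.29-fold (SE 0.34). DCN, decorin, which coats collagen fibrils and binds TGF-beta, was at 252, 123 and 361 CPM against 814, 1670 and 1330 CPM, and fell 5.18-fold (SE 0.36, adjusted p = 0.0007). ECM2 fell 5.6-fold (SE 0.36).

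Hyaluronan genes gave no common direction: of 12 tested, 2 rose (16.7% against 13.5% of all genes) and 4 fell (33.3% against 18.6%). Their median of -0.04 was above 0 in some alternatives. HAS2, a hyaluronan synthase, was at 0.87, 1.08 and 1.11 CPM in Col1 and at 2.77, 5.44 and 3.48 CPM in control (3.8-fold lower, SE 0.49, adjusted p = 0.011). TNFAIP6, which transfers proteins onto hyaluronan, was at 0.511, 0.457 and 0.526 CPM against 4.42, 10.8 and 7.14 CPM, a 14.9-fold fall (SE 0.52, adjusted p = 0.00043). The scavenger receptor STAB1, which takes up hyaluronan, fell 2.42-fold (SE 0.3).

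Of 16 genes for fibronectin and matricellular proteins, 6 fell (37.5% against 18.6% of all genes) and none rose (median -1.03). FN1, fibronectin, was at 70.7, 52.2 and 93.7 CPM in Col1 and at 551, 400 and 404 CPM in control, and fell 6.26-fold (SE 0.37, adjusted p = 0.00049). Its injury_only levels of 237, 289 and 158 CPM lay between the groups. SPARCL1 stood at 72.8, 75.3 and 76 CPM against 381, 1030 and 826 CPM (9.98-fold lower, SE 0.4, adjusted p = 0.00033). POSTN, periostin, a matricellular protein of healing tissue, was at 41.6, 33.3 and 67.2 CPM against 168, 134 and 116 CPM and fell 2.95-fold (SE 0.29, adjusted p = 0.0019).

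Among 27 genes of TGF-beta and BMP signalling, the main profibrotic pathway and its relatives, 9 fell (33.3%, all genes 18.6%) and none rose. The list median was -0.50, and 0.14 with batch as a covariate. TGFB1 itself stood at 11.8, 6.61 and 13.3 CPM in Col1 and at 9.61, 9.96 and 13.8 CPM in control. The groups overlapped (log2 -0.07, SE 0.28, adjusted p = 0.87), and the sign turned without Col1 animal 2 (log2 0.17) and without control animal 3 (log2 0.11). BMP4 was at 4.77, 7.09 and 7.41 CPM against 12.8, 18.2 and 11.9 CPM (2.22-fold lower, SE 0.22, adjusted p = 0.0025). SMAD4, the shared mediator of both branches, fell 1.4-fold (SE 0.1).

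Cells that live in the lamina propria and muscle were represented by lower transcript levels in Col1. Of 21 fibroblast genes 17 fell and 1 rose (median -1.76). PDGFRA, a receptor that marks fibroblasts, was at 10.1, 8.3 and 21.2 CPM in Col1 and at 44.9, 78.8 and 91.7 CPM in control (5.44-fold lower, SE 0.36, adjusted p = 0.00067). FGF10, a growth factor that mesenchyme sends to epithelium, was at 2.35, 2.28 and 3.93 CPM against 12.9, 15.5 and 13.3 CPM (4.86-fold lower, SE 0.31, adjusted p = 0.00048). The summed fibroblast list took 0.0895 to 0.219% of gene reads in Col1 libraries and 0.188 to 0.386% in control libraries.

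Smooth muscle, pericyte and myofibroblast genes gave 8 of 19 lower (42.1% against 18.6% of all genes) and 1 higher (5.26% against 13.5%). Their median was -0.31, and 0.45 with muscle level as a covariate. PDGFRB, a pericyte receptor, was at 8.76, 8.2 and 16.3 CPM against 49.4, 73.3 and 59.6 CPM and fell 5.48-fold (SE 0.36). TPM1, a tropomyosin that skeletal muscle also makes, fell 6.23-fold (SE 0.37). ACTA2, the smooth muscle actin that marks myofibroblasts, was at 83.9, 271 and 48.3 CPM in Col1 and at 53, 77.1 and 63.8 CPM in control. Col1 animal 2 was far above all others, in both folds (290 and 250 CPM), and Col1 animal 3 was below every control animal. ACTA2 did not pass (log2 1.06, SE 0.57, adjusted p = 0.18).

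Endothelial genes fell in 16 of 21 cases and rose in none, with a median of -1.68. It was -1.06 without control animal 2, -1.02 in left folds alone, -0.94 with batch and -0.74 with muscle level as a covariate. BTNL9 and CA4, both found in capillaries, had the smallest p values. BTNL9 was at 0.303, 0.433 and 0.769 CPM in Col1 and at 4.28, 15.7 and 9.17 CPM in control (19.3-fold lower, SE 0.68, adjusted p = 0.00093). CA4, a membrane carbonic anhydrase, was at 0.0946, 0.0962 and 0.344 CPM against 2.67, 12.7 and 6.37 CPM (39.9-fold lower, SE 0.81, adjusted p = 0.0011). With batch as a covariate the CA4 value changed sign (log2 1.94). Of 14 Schwann cell and nerve genes 4 fell (28.6% against 18.6% of all genes) and none rose (median -1.14). The adhesion protein CDH19 (41.6-fold, SE 0.66) and the myelin protein PMP22 (4.73-fold, SE 0.32) were among those that fell.

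Of 8 adipocyte genes 3 fell (37.5% against 18.6% of all genes) and none rose (median -0.64). FABP4, a fatty acid binding protein of fat cells and capillaries, was at 1.1, 1.03 and 1.56 CPM in Col1 and at 16.6, 114 and 34.7 CPM in control (44.6-fold lower, SE 0.95, adjusted p = 0.0014). LPL, lipoprotein lipase, which muscle and fat also make, fell 28.8-fold (SE 0.87). Cartilage genes, which could mark tissue taken from the nearby laryngeal cartilages, gave 5 lower (38.5%) and 1 higher (7.69%) of 13. Over all genes these shares were 18.6% and 13.5%. The cartilage median was -0.47, and 0.06 in left folds alone. CLEC3A was at 2.36, 2.19 and 0.809 CPM against 22.7, 68.3 and 51.7 CPM (26.6-fold lower, SE 0.69), and COL9A3 rested on 14 reads in Col1 and 79 in control (7.15-fold lower, SE 0.63). None of the 5 blood and platelet genes tested passed in edgeR, DESeq2 or voom (0 at an unadjusted p under 0.05 in edgeR). Their median was 0.41, and -0.15 without Col1 animal 2. ITGA2B had the smallest p among them and overlapped between the groups (log2 -0.36, SE 0.26, adjusted p = 0.33).

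**Figure D3:**
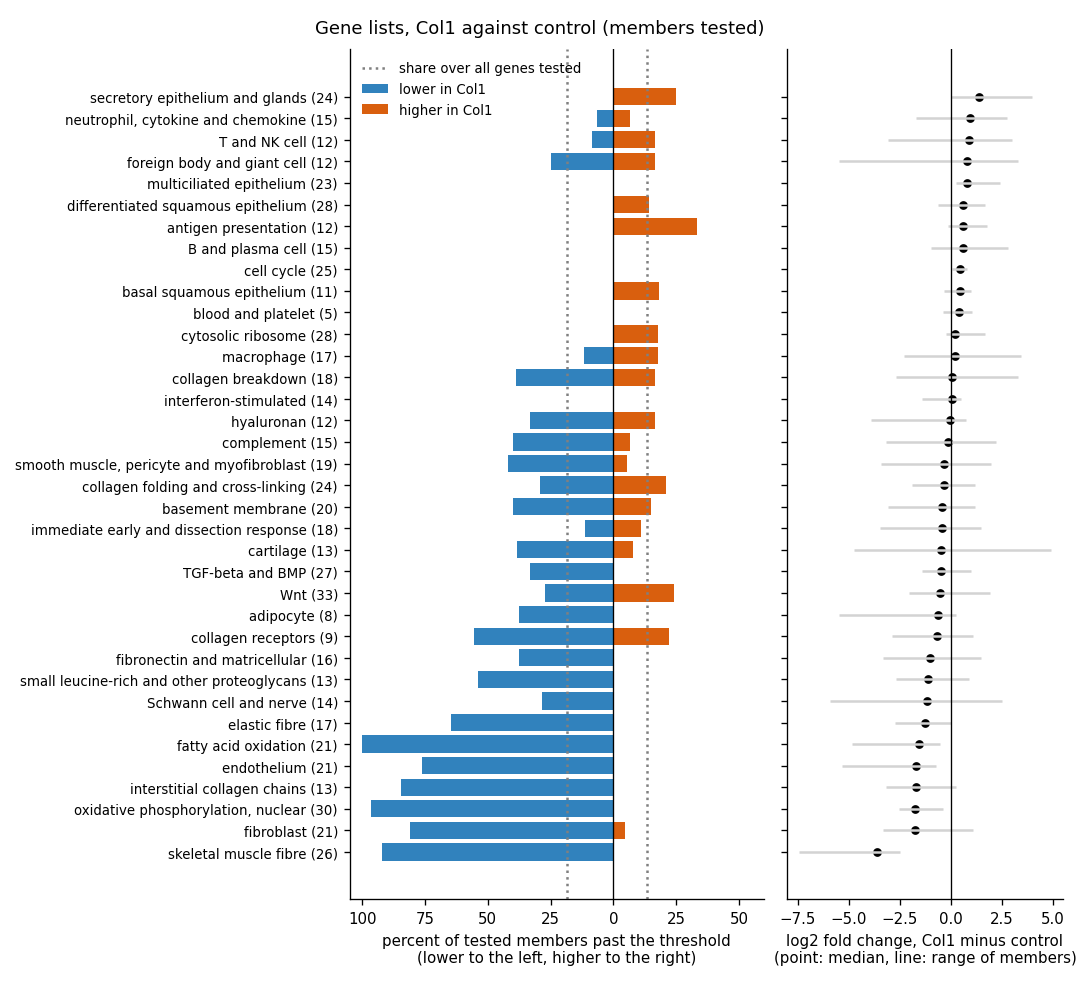
Percent of tested members past the threshold for each of 36 gene lists, lower in Col1 to the left and higher to the right (left panel, number tested in parentheses, dotted lines at the 18.6% and 13.5% of all genes), and the median and range of log2 fold changes of the same lists (right panel). Muscle, oxidative phosphorylation, fatty acid oxidation, endothelium, collagen chain and fibroblast lists lie furthest to the lower side. The basal squamous, differentiated squamous, secretory, antigen presentation and cytosolic ribosome lists have higher but no lower members past the threshold. The multiciliated, B and plasma cell, interferon-stimulated, blood and platelet and cell cycle lists have none in either direction.

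Of 24 genes of secretory epithelium and glands 6 rose and none fell (25% against 13.5% of all genes), with a median of 1.39. It was 0.82 in left folds alone, 2.08 in right folds alone and 0.91 to 1.58 with 1 animal left out. The list took 1.4 to 5.42% of gene reads in Col1 libraries and 0.0569 to 2.46% in control libraries, which overlap. AQP5, the water channel of gland cells, was at 1970, 2130 and 2710 CPM in Col1 and at 1070, 456 and 702 CPM in control, and rose 3.06-fold (SE 0.31, adjusted p = 0.0024). FOXA1, a transcription factor of secretory and other endodermal epithelium, was at 62.5, 62 and 58.4 CPM against 27.8, 14.5 and 24.4 CPM (2.73-fold higher, SE 0.24, adjusted p = 0.0012). No animal of Col1 overlapped with control for either gene. In injury_only AQP5 stood at 789, 1250 and 965 CPM, below each Col1 animal, and FOXA1 at 76, 46 and 54.8 CPM.

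Of 28 genes of the differentiated layers 4 rose and none fell (median 0.60), and of 11 basal genes 2 rose and none fell (median 0.45); both shares are near the background of 13.5%. GRHL1, a transcription factor of the epidermal barrier, was at 193, 139 and 252 CPM in Col1 and at 130, 55.9 and 87.3 CPM in control (2.13-fold higher, SE 0.29, adjusted p = 0.014). SCEL, sciellin, of the cornified envelope, rose 1.76-fold (SE 0.28, adjusted p = 0.044), the keratin KRT15 1.7-fold (SE 0.26, adjusted p = 0.042) and the growth factor receptor EGFR 1.44-fold (SE 0.18, adjusted p = 0.04).

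These squamous calls were not stable. Without control animal 2 none of the 4 passed (adjusted p = 0.055 for GRHL1, 0.17 for SCEL, 0.17 for KRT15 and 0.16 for EGFR). GRHL1 also missed the threshold without Col1 animal 3 (adjusted p = 0.062), SCEL without Col1 animal 1 or 3 or control animal 3 (adjusted p = 0.085, 0.15 and 0.1) and KRT15 without the same animals (adjusted p = 0.068, 0.17 and 0.11). EGFR missed it without any Col1 animal (adjusted p = 0.11, 0.076 and 0.069) and without control animal 3 (adjusted p = 0.081). Without the right fold of control animal 2 the adjusted p was 0.062 for SCEL and 0.056 for KRT15, and with a replicate block it was 0.066 for KRT15. In left folds alone the median of the differentiated list was -0.02, and in right folds alone it was 1.54.

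Multiciliated genes did not pass in any of 23 cases in edgeR (2 at an unadjusted p under 0.05) or voom, and 2 were called higher by DESeq2. The list median was 0.80. CCNO, which drives the formation of many centrioles, was the member with the smallest p, at 1.32, 1.3 and 1.62 CPM in Col1 and at 0.269, 0.0457 and 0.457 CPM in control (log2 2.40, SE 0.87, adjusted p = 0.052, unadjusted p = 0.017). With a replicate block CCNO passed (adjusted p = 0.037). Single libraries decided the list: its summed share of gene reads was 0.0429% in the left fold of Col1 animal 3 and 0.0305% in the right fold of control animal 3, while the other control libraries held at most 0.00367%. The median was 3.42 without control animal 3 and -0.16 without Col1 animal 3.

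Lists of immune genes differed in their counts. Among the 12 genes of T and NK cells, 2 rose (16.7%) and 1 fell (8.33%), against 13.5% and 18.6% of all genes. Their median was 0.89. IL2RB, a chain of the interleukin 2 receptor, was at 0.984, 1.44 and 1.21 CPM in Col1 and at 0.455, 0.365 and 0.514 CPM in control (2.7-fold higher, SE 0.38, adjusted p = 0.014, and 0.062 without control animal 2). TBX21, a transcription factor of type 1 lymphocytes, moved the other way, at 0.265, 0.144 and 0.0607 CPM against 0.537, 1.92 and 1.57 CPM (8.34-fold lower, SE 0.74, adjusted p = 0.008). With batch as a covariate the TBX21 value changed sign (log2 3.62). No B and plasma cell gene of 15 passed in edgeR, DESeq2 or voom (1 at an unadjusted p under 0.05 in edgeR). Their median was 0.59, and it was -0.46 without Col1 animal 2 and -0.26 in left folds alone. TNFRSF13B had the smallest p there (unadjusted 0.043), with 11 reads in Col1 and 1 in control, a ratio of 10.3 with a 95% counting interval of 1.5 to 444.

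Of 12 antigen presentation genes 4 rose (33.3% against 13.5% of all genes) and none fell (median 0.59). TAP2, which carries peptides to MHC class I, was at 33.4, 23.2 and 30 CPM in Col1 and at 17.2, 13.4 and 15.2 CPM in control (1.89-fold higher, SE 0.23, adjusted p = 0.0089). CALR, a chaperone of the same pathway, rose 1.43-fold (SE 0.17, adjusted p = 0.032), a call that was lost without any 1 of 5 animals (adjusted p from 0.055 to 0.14), held without control animal 1, and had the opposite sign with muscle level as a covariate (log2 -0.15).

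Of 17 macrophage genes 3 rose (17.6% against 13.5% of all genes) and 2 fell (11.8% against 18.6%), and the median was 0.21 (-0.08 without Col1 animal 2). MERTK, a receptor for the uptake of dying cells, was at 19.1, 16.8 and 16.1 CPM in Col1 and at 7.79, 7.63 and 7.42 CPM in control (2.28-fold higher, SE 0.17, adjusted p = 0.00062). CD163, the haemoglobin scavenger receptor of resident macrophages, was at 0.397, 0.361 and 0.648 CPM against 2.11, 1.96 and 2.83 CPM (4.88-fold lower, SE 0.45, adjusted p = 0.0029). Injury_only stood with Col1 for both, with MERTK at 22.7, 21.9 and 18.7 CPM and CD163 at 0.465, 0.755 and 1.01 CPM. Genes of foreign body reactions and giant cells, which could mark a response to the injected material, gave 2 higher and 3 lower of 12 (median 0.81). These shares of 16.7% and 25% are near the 13.5% and 18.6% of all genes. The 3 lower were CTSK, LPL and FABP4, which osteoclasts, muscle or fat cells also make. MMP12, given above, was among the 2 higher.

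Of 15 cytokine, chemokine and neutrophil genes 1 rose and 1 fell (6.67% each, against 13.5% and 18.6% of all genes). The list median was 0.96, 1.92 without control animal 1, and -2.48 with muscle level as a covariate. IL18, a cytokine that epithelial cells store, was at 278, 217 and 229 CPM in Col1 and at 132, 58.2 and 103 CPM in control (2.46-fold higher, SE 0.23, adjusted p = 0.0015). CCL2, a monocyte chemokine, was at 0.284, 0.12 and 0.587 CPM against 0.62, 2.06 and 0.657 CPM (3.28-fold lower, SE 0.6, adjusted p = 0.046). Its call was lost without control animal 2 (log2 -0.97, adjusted p = 0.25), without the right fold of that animal (adjusted p = 0.076), without Col1 animal 1 or 2 (adjusted p = 0.12 each) and with a replicate block (adjusted p = 0.064).

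None of 14 interferon-stimulated genes passed in edgeR (1 at an unadjusted p under 0.05) or voom, and DESeq2 called 1 lower, with a median of 0.05 that turned negative in several alternatives, among them left folds alone (-0.37). IFIT2 was at 12, 5.77 and 3.64 CPM against 20.9, 18 and 18.2 CPM and missed the threshold (log2 -1.42, SE 0.56, adjusted p = 0.069, unadjusted p = 0.025). It passed without Col1 animal 1 (log2 -2.01, adjusted p = 0.031). Of 15 complement genes 6 fell (40% against 18.6% of all genes) and 1 rose (median -0.13). The proteases C1S and C1R, which start the classical pathway, fell 3.57-fold (SE 0.25, adjusted p = 0.00046) and 3.14-fold (SE 0.26, adjusted p = 0.00093). C1S was at 43.3, 31.5 and 60.9 CPM in Col1 and at 129, 206 and 149 CPM in control.

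Of 20 basement membrane genes 3 were higher (15% against 13.5% of all genes) and 8 lower (40% against 18.6%), with a median of -0.41. The laminin chains LAMA2 and LAMA4, of muscle and vessels, had the smallest p values. LAMA2 was at 3.52, 4.86 and 4.65 CPM in Col1 and at 29.6, 45.1 and 36 CPM in control (8.49-fold lower, SE 0.33, adjusted p = 0.00029), and LAMA4 fell 6.9-fold (SE 0.41). LAMA2 was also among the 18 genes that passed in left folds alone (log2 -1.97, adjusted p = 0.048).

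Of 33 Wnt genes 8 were higher (24.2% against 13.5% of all genes) and 9 lower (27.3% against 18.6%), with a median of -0.53. WNT4, a ligand of epithelium and glands, was at 105, 66.7 and 124 CPM in Col1 and at 41.2, 29.6 and 32.9 CPM in control (2.85-fold higher, SE 0.25, adjusted p = 0.0011). The receptor FZD1 was at 25.6, 24.4 and 24.1 CPM against 13.9, 9.5 and 10.4 CPM (2.19-fold higher, SE 0.18, adjusted p = 0.0009). In both cases every Col1 animal exceeded every control animal.

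None of 25 cell cycle genes passed in edgeR, DESeq2 or voom (0 at an unadjusted p under 0.05 in edgeR), with a median of 0.46 that was -0.34 in left folds alone and -1.45 with muscle level as a covariate. TYMS, thymidylate synthase, was at 21.4, 28.3 and 19.2 CPM in Col1 and at 14.3, 12.9 and 11.8 CPM in control (log2 0.82, SE 0.39, adjusted p = 0.13, unadjusted p = 0.059). Of 18 immediate early genes, which dissection and handling can raise, 2 rose and 2 fell (11.1% each, against 13.5% and 18.6% of all genes). Their median was -0.43, 0.27 without control animal 2, and 0.82 with batch as a covariate. KLF6 rose 1.66-fold (SE 0.21) and the heat shock protein HSPA8 fell 1.63-fold (SE 0.2), and both calls were lost without control animal 3 (adjusted p = 0.055 for KLF6 and 0.072 for HSPA8). KLF6 also missed the threshold without Col1 animal 3 (adjusted p = 0.089) or control animal 2 (adjusted p = 0.069), and HSPA8 without Col1 animal 2 (adjusted p = 0.066). Of 28 cytosolic ribosomal genes 5 rose (17.9% against 13.5% of all genes) and none fell (median 0.22). RPL3, a protein of the large subunit, rose 1.4-fold (SE 0.15), and its call was lost without Col1 animal 2 (adjusted p = 0.085) and without control animal 2 or 3 (adjusted p = 0.083 and 0.076).

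The 12 largest increases, among genes with a symbol and animals that did not overlap, ranged from SLCO4C1 at log2 2.54 to the entry ADORA1_1 at log2 5.88. FBP1, the gluconeogenic fructose bisphosphatase, was at 29.4, 55.3 and 47.1 CPM in Col1 and at 11, 0.959 and 5.28 CPM in control (7.57-fold higher, SE 0.75, adjusted p = 0.011). NUPR1, a stress-induced nuclear protein, was at 27.4, 36.7 and 10.2 CPM against 4.84, 3.38 and 3.77 CPM (6.18-fold higher, SE 0.51, adjusted p = 0.0026). SLCO4C1, an organic anion transporter, was at 38.3, 30.8 and 21.3 CPM against 10.8, 1.74 and 2.83 CPM (5.83-fold higher, SE 0.61, adjusted p = 0.0082). Each of these had injury_only levels above every control animal.

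IL2RA, the alpha chain of the interleukin 2 receptor, was at 3.05, 3.9 and 2.65 CPM in Col1 and at 0.248, 0.228 and 0.799 CPM in control (7.41-fold higher, SE 0.85, adjusted p = 0.021). Its call was lost without control animal 1 or 2 (adjusted p = 0.065 and 0.089). CXXC4, an inhibitor of Wnt signalling, was at 2.46, 15.8 and 4.41 CPM against 1.12, 1.23 and 0.914 CPM (6.93-fold higher, SE 0.67), with Col1 animal 2 the highest. The vesicle trafficking genes SYTL3 and RAB37 rose 5.95-fold and 6.05-fold, FAM241B 6.41-fold and the deubiquitinase gene OTUD7A 7.19-fold. RAB37 missed the threshold without Col1 animal 3 (adjusted p = 0.055) and OTUD7A reached an adjusted p of 0.05 without control animal 3.

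CRISP2 and TTC6 each had 1 Col1 animal far above the others. CRISP2 was at 0.851, 5.17 and 0.344 CPM in Col1 and at 0.31, 0.0457 and 0.2 CPM in control, and without Col1 animal 2 it did not pass (log2 1.60, adjusted p = 0.17, against 3.42 and 0.023 with all animals). It also missed the threshold without control animal 2 (adjusted p = 0.089) or 3 (adjusted p = 0.068) and with a replicate block (adjusted p = 0.059). TTC6 was at 1.21, 3.1 and 11.1 CPM against 0.496, 0.639 and 0.971 CPM, and without Col1 animal 3 it did not pass (log2 1.62, adjusted p = 0.15, against 2.87 and 0.026). Leaving out any 1 control animal also ended the TTC6 call (adjusted p = 0.073, 0.09 and 0.052).

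ADORA1_1, a second entry that carries the symbol of the adenosine A1 receptor, was at 1270, 1960 and 1800 CPM in Col1 and at 12.5, 56.3 and 17 CPM in control (58.8-fold higher, SE 1.69, adjusted p = 0.019). Without control animal 1 or 3 it missed the threshold (adjusted p = 0.057 and 0.069). The annotation behind this entry is not given in the sources used here, so its identity as ADORA1 is uncertain.

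**Figure D4:**
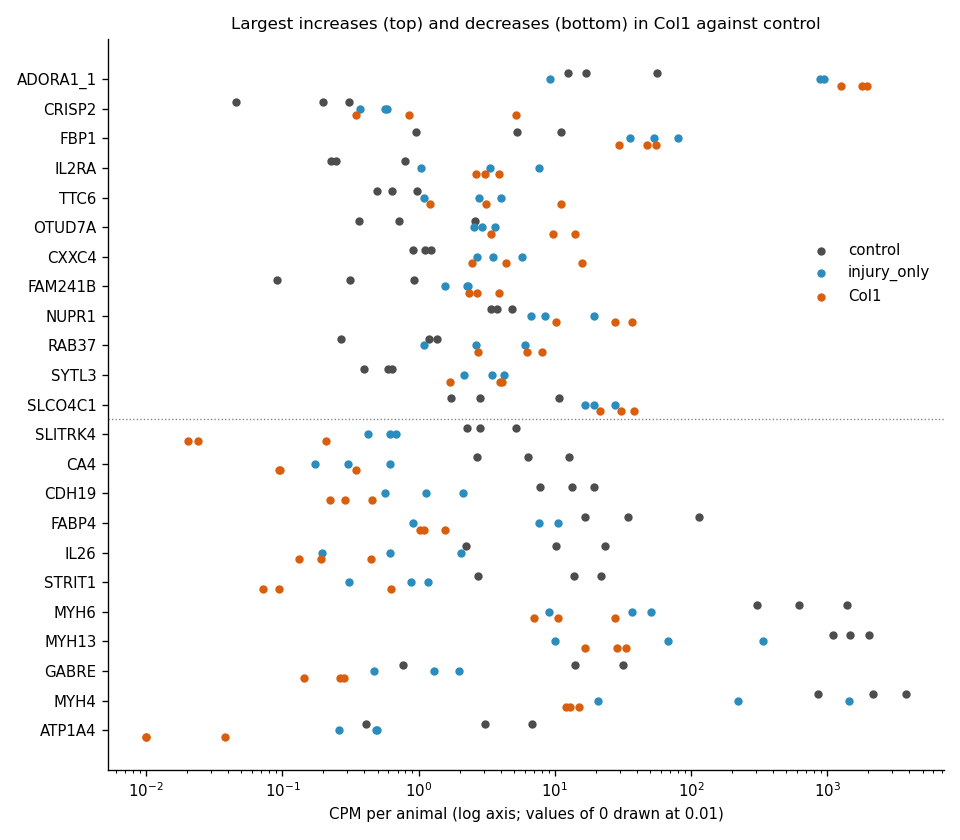
CPM per animal (log axis) of the 12 largest increases (above the dotted line) and 11 of the largest decreases (below it) in Col1 against control, with control in dark grey, injury_only in blue and Col1 in orange; each point is an animal and values of 0 are drawn at 0.01. Col1 and control points do not overlap for any gene, because the genes were chosen so, and the injury_only points lie between them or on the Col1 side for most genes.

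The largest decreases, of which 11 are given, included genes of muscle, nerve and vessels. MYH4, a fast muscle myosin, was at 12.1, 15 and 12.9 CPM in Col1 and at 861, 3770 and 2150 CPM in control (log2 -7.41, SE 1.69, adjusted p = 0.0061). MYH13, the superfast myosin of eye and laryngeal muscle, was at 16.6, 33.4 and 28.7 CPM against 1470, 2040 and 1100 CPM (58.5-fold lower, SE 1.17), and MYH6, the alpha cardiac myosin that some head muscles also make, fell 51.2-fold (SE 1.44). Injury_only varied widely for these, with MYH4 at 20.9, 222 and 1450 CPM and MYH13 at 10.1, 68.1 and 335 CPM. With muscle level as a covariate MYH4 gave log2 0.08, but MYH4 is itself in the list whose mean forms that covariate. A value near 0 there therefore says nothing about MYH4.

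ATP1A4, a sodium pump subunit best known from testis, had 2 reads in all Col1 libraries and 325 in all control libraries, a control to Col1 ratio of 173 with a 95% counting interval of 47.5 to 1440. GABRE, a GABA receptor subunit, was at 0.284, 0.144 and 0.263 CPM against 0.765, 31.8 and 14 CPM (66.2-fold lower, SE 1.34), with control animal 1 close to Col1. SLITRK4, a neuronal membrane protein, fell 38.3-fold (SE 1.1).

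IL26, a cytokine of lymphocytes, and STRIT1, a small regulator of the muscle calcium pump, were also among them, with FABP4, CDH19 and CA4, described above. IL26 was at 0.132, 0.192 and 0.445 CPM in Col1 and at 2.21, 23.5 and 10.2 CPM in control (46.1-fold lower, SE 1.3, adjusted p = 0.0071). STRIT1 was at 0.0946, 0.0721 and 0.627 CPM against 2.73, 21.9 and 13.8 CPM (47.7-fold lower, SE 1.69, adjusted p = 0.025). With muscle level as a covariate IL26 gave log2 0.12 and STRIT1 log2 1.14, and with batch as a covariate IL26 gave log2 2.99. STRIT1 missed the threshold without Col1 animal 1 or 2 or control animal 2 (adjusted p = 0.082, 0.077 and 0.069).

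The injury_only group shares the stripping with Col1 and not the injection, but 5 of its 6 libraries are in batch C and all Col1 libraries in batch D, so injection and batch cannot be told apart here either. Against it Col1 gave 0 genes past the threshold in edgeR (2530 of 17770 at an unadjusted p under 0.05). For AQP5, MMP15, FN1 and CTSK the Col1 animals did not overlap with injury_only. These are examples from the named genes, and the share of all genes that separated in this way was not counted. With 3 animals a side, such separation can also arise by chance. AQP5 was 2.26-fold higher (SE 0.31) and MMP15 1.91-fold higher (SE 0.23) than in injury_only, and FN1 was 3.16-fold lower (SE 0.35) and CTSK 1.99-fold lower (SE 0.18), each with an adjusted p of 0.27. WNT4 was 1.8-fold higher (SE 0.25, adjusted p = 0.27) and overlapped, since the lowest Col1 value of 66.7 CPM lay below the highest injury_only value of 69.4 CPM. Col1 and injury_only were each compared with the same control animals. Against these, the median of the collagen chains was -1.69 for Col1 and -0.70 for injury_only, that of oxidative phosphorylation -1.74 and -1.53, that of secretory epithelium 1.39 and 2.10, and that of the differentiated squamous list 0.60 and -0.12. Whether these pairs of medians differ was not tested.

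Right and left folds gave unlike pictures of the comparison. In right folds alone 7762 genes passed in edgeR and in left folds alone 18 did (3970 at an unadjusted p under 0.05). A test of the difference itself, with animals as blocks over all 30 libraries, found the Col1 against control difference to depend on the fold for 5105 of 16475 genes, 2712 with a higher and 2393 with a lower difference in right folds. Of the cell cycle list, 20 of 25 genes had a higher difference in right folds (2712 of all 16475 genes) and none a lower one. The same held for 13 of 28 differentiated squamous genes and 8 of 11 basal squamous genes, with none lower. Lower differences in right folds (2393 of all 16475 genes) were seen for 29 of 30 oxidative phosphorylation genes and 15 of 21 fibroblast genes. They were also seen for 14 of 21 endothelial genes, 6 of 13 collagen chains and 8 of 26 muscle genes.

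Single libraries show the pattern. DDR1 was at 302, 311 and 359 CPM in left and at 319, 293 and 383 CPM in right Col1 folds, against 237, 137 and 216 CPM in left and 140, 31.7 and 110 CPM in right control folds. Its difference was larger in right folds by 1.31 on the log2 scale (adjusted p = 0.0096). FN1 was at 113, 65.2 and 131 CPM in left and 48.7, 38.6 and 58.5 CPM in right Col1 folds, against 465, 227 and 292 CPM in left and 677, 656 and 546 CPM in right control folds, and its difference was lower in right folds (log2 -2.02, adjusted p = 0.0091). In every animal of both groups the fold with more muscle reads was also the one with more FN1. For COL1A1 the difference was log2 -0.69 in left and -2.55 in right folds, and the fold dependence did not pass (log2 -1.68, adjusted p = 0.14). Muscle content differed between folds in the same way, as given above, and its part was not tested.

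The 18 genes that passed in left folds alone were named for that reason after their values were seen. RASGRP3, an activator of Ras proteins, was at 7.79, 5.25 and 6.02 CPM in left Col1 folds and at 18.5, 61.4 and 43.4 CPM in left control folds (log2 -2.72, SE 0.4). DLK2, a relative of the Notch ligands, was at 31.2, 37.3 and 51.3 CPM against 16, 13 and 13.3 CPM (log2 1.48, SE 0.22). Of the 18, 12 were lower and 6 higher, all at an adjusted p of 0.048, and among the lower were the methionine synthase MTR and the mitochondrial genes LRPPRC, HSPD1 and PTCD3.

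The injury_only animal with 1 fold in each batch gave the only view of batch within an animal. Its fold in batch D was higher than its fold in batch C for 65.5% of the genes that rose in Col1 (median log2 0.11) and for 13.8% of those that fell (median log2 -0.38), against 45.6% of all genes (median log2 -0.03). The same 2 folds differed in muscle reads, with 0.201% in batch D and 1.83% in batch C, and they are a right and a left fold, so batch, side and muscle content cannot be told apart there.

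**Figure D5:**
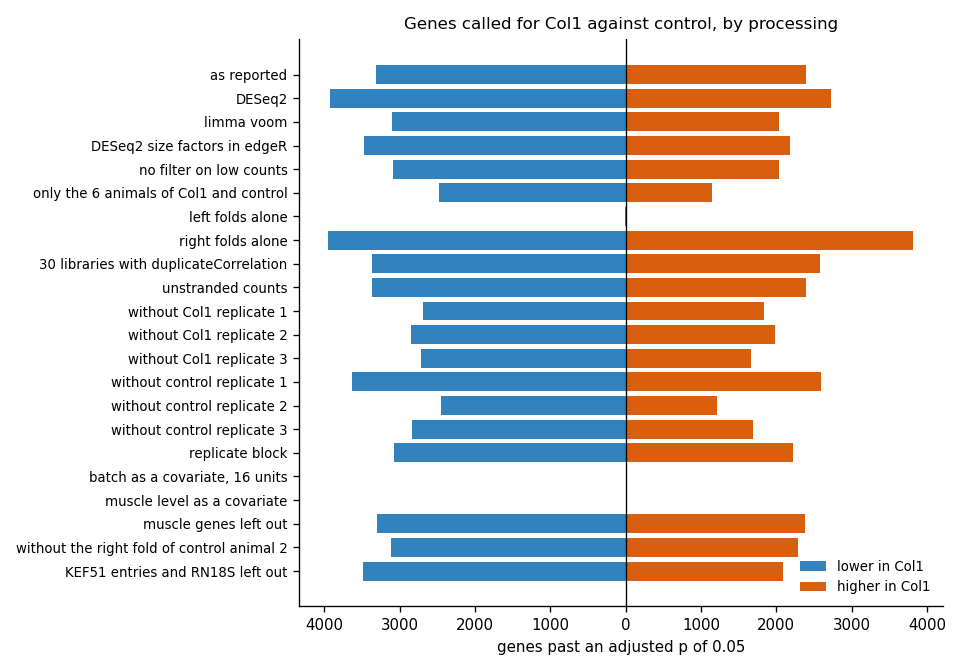
Number of genes past an adjusted p of 0.05, lower in Col1 to the left and higher to the right, under the reported model and each alternative. Left folds alone gave 18 genes and the fits with a batch or muscle covariate gave 0, while the other alternatives gave 3628 to 7762.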

How the data were processed

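Per the labels' protocols, RNA of dissected vocal fold mucosa was made into KAPA mRNA HyperPrep libraries and sequenced as paired reads on a DNBSEQ instrument. The authors deposited raw counts of reads per gene, made with STAR 2.7.10b per the submitters' processing notes, with no normalization. For the genome build and annotation: not given in the sources used here. The table has 31346 genes, 14615 of them with a LOC number and no symbol; 15808 of 16731 symbols were found in RefSeq, used for names alone. The column for reads stranded like read 2 was analysed, and the folds of an animal were summed. Its 4 entries for reads not counted on a gene were left out (25.7 to 36.6% of reads in Col1 and 25.6 to 44.7% in control).

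Tests used R 4.3.3 and edgeR 4.0.16: a quasi-likelihood F test over 15 animals in 5 groups, TMM factors, filterByExpr with a minimum count of 10, no covariate, and Benjamini-Hochberg adjustment over all 17770 genes with 0.05 as the threshold. The SE is the absolute log2 change over the square root of F, an approximation. Counting intervals are 95% intervals and cover counting error only. Nothing in the labels pools animals, so p values measure the spread between animals. The model was tested on simulated counts that held no batch or muscle difference between groups, so that test says nothing about either.

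The members and 36 gene lists (657 of 745 genes found, 631 tested) were chosen with earlier results of these data known. The text names 3 kinds of gene: the 12 largest called changes in each direction (symbol known, higher group averaging 2 CPM or more, animals not overlapping); of each list the 2 members past the threshold with the smallest p, or 1 where none passed; and COL1A1, COL1A2, COL3A1, FN1, ELN, ACTA2, TGFB1, POSTN, MMP1, HAS2, DCN, DDR1, DDR2, ITGA1, ITGA2, ITGA11, LAIR1 and CTSK. Other members of the 4 collagen lists could be named too. Alternatives were DESeq2 1.42.0, its size factors, limma 3.58.1 voom, no filter, only the 6 animals, left or right folds alone, 30 libraries with duplicateCorrelation, unstranded counts, a replicate block, each animal left out, batch or muscle level as a covariate, and muscle genes left out. Leaving out the right fold of control animal 2, leaving out the KEF51 entries with RN18S, and the test of fold dependence were added after the data were seen. A few genes that the rule names are not reported here.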

Additional observations from a re-analysis of the deposited data

Results flagged for a closer look

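Among 84 sets of 6 libraries (a quality measure or the summed share of a gene list, in Col1 or control), 6 held a library far from the other 5, and chance alone gives about 1 in 20. Of these, 3 concerned Col1 animal 2, right fold: its unmapped reads were 4.98% (the next highest library had 3.57%), its share of gene reads on TGF-beta and BMP genes was the lowest at 0.0761% (next 0.0938%), and its share on B and plasma cell genes was the highest at 0.0377% (next 0.0253%). The left fold of Col1 animal 3 had the highest share on collagen folding and cross-linking genes, 0.0988% (next 0.0807%), and on multiciliated genes, 0.0429% (next 0.018%). The right fold of control animal 3 had 0.0305% on multiciliated genes, and the next control library 0.00367%.

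The difference between Col1 and control depended on the fold for 5105 genes, by a test of the difference between right and left folds with animals as blocks (edgeR, 16475 genes tested, 7117 at an unadjusted p under 0.05). Of these, 2937 were also past the threshold for Col1 against control with the folds summed.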

How the results depend on the processing

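The count of 5702 genes was 18 in left folds alone (6 higher, 12 lower), 3628 with only the 6 animals (1153 higher, 2475 lower), and 0 with batch or muscle level as a covariate, with 0 higher and 0 lower. Right folds alone gave 3819 higher among 7762. Leaving out 1 animal gave 3658 (without control animal 2) to 6221 genes, 1207 to 2590 higher and 2451 to 3631 lower. The share of higher genes among those past the threshold was 42%, and 31.8% with only the 6 animals. The other alternatives stayed within 1.5 times, from 5110 without a filter to 6648 with DESeq2. A replicate block gave 5293 genes. Log2 deviations from the group mean correlated at -0.5 to 0.36 between same-numbered animals of different groups (30 pairs, median -0.02). The numbers were therefore not taken as pairs.

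Values of opposite sign were, with batch as a covariate, CA4 1.94, IL26 2.99, TBX21 3.62 and TGFB1 0.26; with muscle level as a covariate, CALR -0.15, IL26 0.12, MMP1 -0.76, MYH4 0.08, STRIT1 1.14 and TYMS -0.51; and in left folds alone ITGA2B 0.05. TGFB1 ranged over -0.27 to 0.17 when 1 animal was left out (0.11 without control animal 3). The cause was not tested, and MYH4 is in the list whose mean forms the muscle covariate. Of the 97 genes named, 88 were past the threshold; all 88 lost their call with a batch covariate and with a muscle covariate, as did 85 of the 86 tested in left folds alone. Genes of few reads, such as MMP12 and TNFRSF13B, are limited by depth.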

Other observations

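The entry ADORA1_1 was either high or nearly absent in both folds of an animal. It was read at 875 to 2420 CPM (here without TMM scaling) in the 6 Col1 libraries and at 6.11 to 39 CPM in the 6 control libraries. In injury_only it was at 1110 and 956 CPM in animal 1, at 8.17 and 10.6 CPM in animal 2 and at 658 and 1120 CPM in animal 3. In the other injected groups, VFLP (man) animal 3 had 3.27 and 4 CPM, and the other libraries had 592 to 1930 CPM. The entry named ADORA1 alone stayed at 0.0348 to 2.2 CPM in all 30 libraries. Ambiguous reads made up 0.51% or more in each library where ADORA1_1 was nearly absent and 0.203% or less in all others. What links them was not tested.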
